A study of Mus musculus with 12 samples.

Results

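The change of each transcript in the cold was compared between brown fat with and without Cdk7. For every gene, the cold response of the knockout (Cold-ko against RT-ko) was set against that of control littermates (Cold-wt against RT-wt), and the difference of these 2 responses was tested in 1 fit of all 12 libraries. Of 53379 gene identifiers in the files, 15208 had enough reads to be tested, and these were sorted by what their cold response did in the knockout. The tissue was interscapular brown fat of C57BL/6 mice aged 12 weeks, taken at zeitgeber time 9, counted from lights on. RT-wt and RT-ko were kept at room temperature, and Cold-wt and Cold-ko spent 6 h in the cold with food present. The wt groups are labelled wild type and were littermates of the ko groups, which carry the genotype named CDK7 bKO. The driver of the deletion, the sex of the mice and the temperature of the cold are not given in the sources used here. Each of the 4 groups held 3 libraries, and each library was a pool of RNA from 2 mice, 250 ng from each. Errors below therefore measure the spread between pools and not between single animals.

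Brown fat burns fuel to make heat. In the cold, sympathetic nerves release noradrenaline, beta-adrenergic receptors on brown adipocytes raise cyclic AMP, and protein kinase A then starts lipolysis and switches on genes such as Ucp1, whose product uncouples mitochondrial respiration from ATP synthesis, together with Ppargc1a, a coactivator of mitochondrial genes, and Dio2, which activates thyroid hormone. Cdk7 is the kinase subunit of the CDK-activating kinase and of the general transcription factor TFIIH. In TFIIH it phosphorylates the tail of RNA polymerase II near the start of genes, and outside it activates cell cycle kinases.

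Between 27609717 and 36792555 reads were assigned to genes in each library, and mitochondrially encoded genes took 31.1 to 42.5% of them. Cdk7 itself (ENSMUSG00000069089, chromosome 13, 100702631 to 100730939, minus strand, GRCm38) read 16.4, 15.1 and 16.1 CPM (gene counts scaled to a common library size) in RT-wt and 17.9, 16.1 and 15.7 in Cold-wt, against 4.35, 5.15 and 5.77 in RT-ko and 5.38, 4.85 and 5.39 in Cold-ko. It was low in all 6 knockout libraries, and no difference in its cold response was called (log2 difference -0.03 ± 0.16 (SE), adjusted p = 0.93). All 10 adipocyte markers were found in every library, at a summed level of at least 13585 CPM. The 17 markers of skeletal muscle, which lies next to this fat depot, summed to 168 to 1101 CPM in RT-wt, 39.8 to 1446 in RT-ko, 68.6 to 171 in Cold-wt and 43.6 to 310 in Cold-ko. RT-wt 2 and RT-ko 6 were the richest in them, and 4 of the markers, Myh7, Ckm, Pvalb and Tcap, were at 0 in at least 1 library. None of the 17 passed edgeR's test of the difference, with none at an unadjusted p below 0.05, and neither DESeq2 nor voom called any. Their median log2 response was -3.33 in the controls and -1.55 in the knockout (median difference 1.77), so the missing calls do not show balance. Without RT-wt 2 and RT-ko 6 the median difference was 6.96, and edgeR gave 5 of the 17 an unadjusted p below 0.05. The part of muscle RNA in other results was not tested, and values without these 2 muscle-rich libraries are given beside the results that they moved most. That fit still held RT-wt 1, at 495 CPM of muscle markers, and Cold-ko 3, at 310, so muscle RNA remained uneven between groups.

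A positive difference means that a gene's cold response lay higher in the knockout than in the controls, and a negative one that it lay lower. A call means an adjusted p below 0.05 over all 15208 genes. Among genes with a called difference, a response was lost when the control response was called and the knockout response was not, weakened or strengthened when both were called in 1 direction with the knockout response smaller or larger, reversed when both were called in opposite directions, and KO-only when only the knockout response was called. Kept means that both responses were called in 1 direction and that no difference was called. It does not mean that the responses were shown to be equal.

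The cold changed far more transcripts in control than in knockout brown fat. In the controls 7034 genes changed, 46.3% of those tested, with 3503 higher (23%) and 3531 lower (23.2%), against 1826 and 4813 when libraries were scaled by their totals alone. In the knockout 2258 changed (14.8%), with 1109 higher (7.29%) and 1149 lower (7.56%). The difference itself passed the test for 3581 genes (23.5%), with the knockout response lying higher for 1614 (10.6%) and lower for 1967 (12.9%). Scaling by library totals alone turned that split into 2388 higher and 711 lower, and moved the median difference over all genes from 0.01 to 0.24 on the log2 scale, so differences are given relative to the median gene.

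Loss was the most frequent outcome. Of the tested genes, 2645 lost their response (17.4%), 315 kept a weakened one (2.07%), 18 had a strengthened one (0.118%), 126 a reversed one (0.829%) and 320 responded in the knockout alone (2.1%). A further 1020 genes (6.71%) kept their response. The remaining 2910 genes called in the controls could not be sorted, since neither the knockout response nor the difference passed the test, and 157 genes had a called difference but no called response in either genotype. Leaving out the 2 muscle-rich libraries gave 1903 differences and 1516 lost responses, and 50.9% of the lost genes were lost again.

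**Figure D1:**
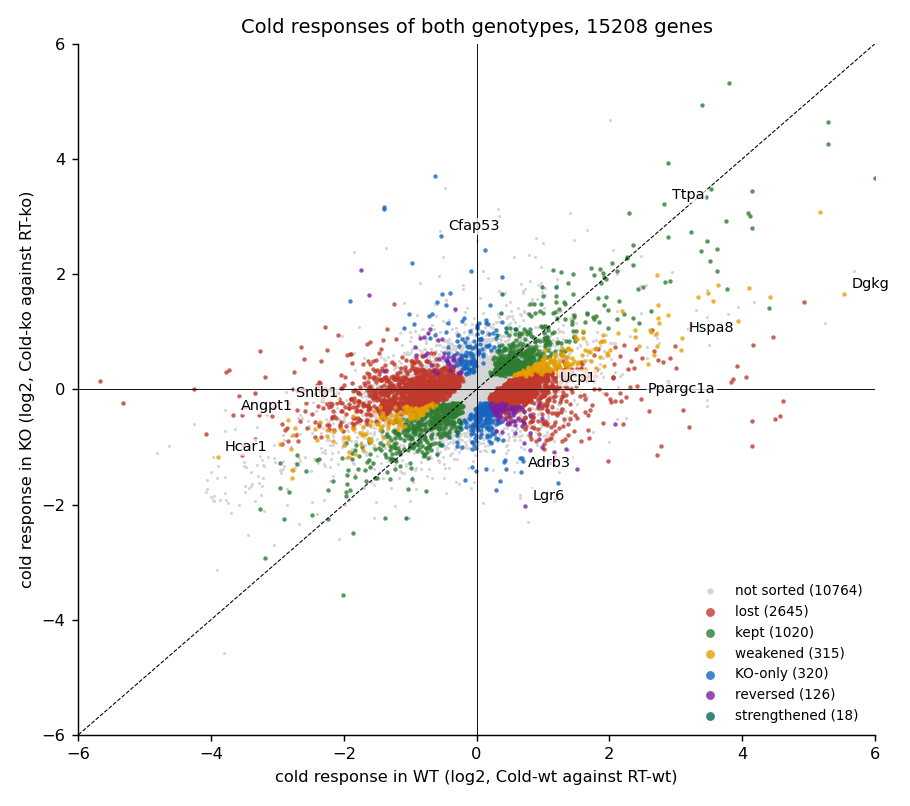
Cold response of 15208 genes in controls (x axis, log2) against that in knockouts (y axis, log2), 1 point a gene, coloured by class, with equal responses on the dashed line. Lost genes spread along the x axis with knockout responses near 0, and kept genes lie near the dashed line. 6 genes beyond 6 on either axis are not drawn.

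Over the 7034 genes called in the controls, the knockout response was a median of 24.0% of the control response (quartiles -1.21 and 50.7%), and 73.9% of them moved in the same direction. Choosing genes by the control call favours large control responses, which lowers this share. Over the 2258 genes called in the knockout, the control response was a median of 85.5% of the knockout response (quartiles 18.6 and 152%). By the way they were sorted, the lost genes have knockout responses near 0, with a median of -0.03 where the controls rose (median 0.61, 1407 genes) and -0.02 where the controls fell (median -0.88, 1238 genes). Weakened genes retained a median of 41.2% of the control response and kept genes 85.4%, shares that the sorting also shapes. The knockout and control responses share no library, and across all tested genes they correlated with Pearson's r = 0.49, which is a description over genes that are not independent.

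The share of lost genes did not follow the size of the control response in 1 direction. Among genes that rose by more than 2 log2 units in the controls, 34.0% of 150 were lost, 19.3% weakened and 26.7% kept. Among genes that rose by 0.5 to 1, 50.3% of 1341 were lost and 4.70% weakened. For falling genes the lost share went from 19.8% of the 968 smallest responses to 49.5% of the 186 largest. No fall below 0.5 and no rise below 0.5 was sorted as weakened.

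**Figure D2:**
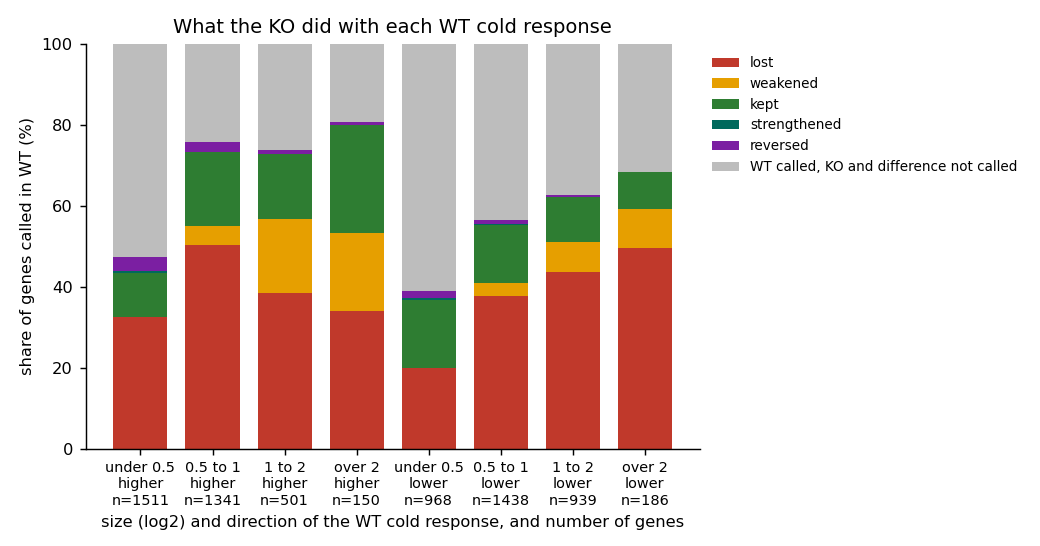
Share of the genes called in controls (y axis, %) that fell into each class, by direction and size of the control response (x axis, log2, with the number of genes). The lost share peaks at 50.3% for rises of 0.5 to 1 and at 49.5% for falls over 2.

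Lost genes could differ between genotypes before cold, in the cold, at both temperatures or at neither. Among the 2645 lost genes, 1022 already differed at room temperature between genotypes in the direction that cold took in the controls, 200 differed in the opposite direction and 1423 did not pass that test. In the cold, 1888 lay in Cold-ko on the side opposite to the control response, 77 on the same side and 680 did not pass. In all, 1359 differed between genotypes only in the cold, 616 only at room temperature, 606 at both and 64 at neither. A called difference at room temperature does not place a gene at the cold level. For lost rises the median difference at room temperature was 0.13, against a control response of 0.61. For lost falls these were -0.34 and -0.88. Over all tested genes, 40.4% differed between genotypes at room temperature and 53.7% in the cold. These comparisons use the same libraries as the difference, so they locate it among the 4 groups and add no independent evidence.

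Thermogenic genes that were induced in the controls often did not pass the test in the knockout. Of 22 tested members of a list of core thermogenic genes, 10 rose and 5 fell in control cold. In the knockout 1 rose and 4 fell. Between genotypes 7 differed, all with a lower knockout response, where 23.5% of all genes differed and 12.9% lay lower. The lost members were Ucp1, Ppargc1a, Esrrb, Esrra, Kcnk3, Gk and Adcy3, and the kept ones Elovl3, Prdm16, Ebf2, Esrrg and Ucp3. The median difference was -0.29 against 0.01 over all genes. Leaving out the muscle-rich libraries, 4 members differed, again all lower.

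Ucp1 (ENSMUSG00000031710, chromosome 8, 83290352 to 83298452, plus strand) read 8501, 6627 and 6787 CPM in RT-wt, 17540, 15940 and 14790 in Cold-wt, 4395, 3905 and 3608 in RT-ko and 3723, 4283 and 4207 in Cold-ko. Every Cold-wt pool lay above every other pool, while the 3 Cold-ko pools overlapped the RT-ko pools and lay below all RT-wt pools. It rose 2.20-fold in the controls (log2 1.14 ± 0.12) and by 0.04 ± 0.12 in the knockout (adjusted p = 0.88). The difference was -1.10 ± 0.17 (adjusted p = 0.00037), and it was called in all 20 alternatives run for this gene. The level in the knockout is that of the whole tissue, in which fewer brown adipocytes and less Ucp1 RNA per cell cannot be told apart.

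Ppargc1a (ENSMUSG00000029167, chromosome 5, 51454250 to 51567726, minus strand) read 271, 223 and 99.98 CPM in RT-wt and 1304, 1293 and 706 in Cold-wt. In the knockout it read 412, 544 and 698 before cold and 421, 480 and 582 after. It began above the control level, and no change in the cold was called, with a control response of 2.48 ± 0.41, a knockout response of -0.16 ± 0.39 and a difference of -2.64 ± 0.56 (adjusted p = 0.011). The adjusted p was 0.0582 when the muscle-rich libraries were left out. Esrrb, a nuclear receptor that works with this coactivator, gave the largest other difference in the list. It read 0.959, 1.31 and 1.80 CPM in RT-wt and 8.36, 11.1 and 9.65 in Cold-wt, against 1.78, 0.826 and 1.11 in RT-ko and 2.38, 1.30 and 1.54 in Cold-ko, a difference of -2.33 ± 0.41 (adjusted p = 0.0011).

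Dio2 (ENSMUSG00000007682, chromosome 12, 90724552 to 90738438, minus strand) missed the threshold. It read 906, 383 and 283 CPM in RT-wt, 3643, 3216 and 3475 in Cold-wt, 656, 1032 and 872 in RT-ko and 1667, 1847 and 1574 in Cold-ko. Every Cold-ko pool lay above every RT-ko pool and below every Cold-wt pool. The control response was 2.72 ± 0.41, the knockout response 0.99 ± 0.39 (adjusted p = 0.13) and the difference -1.73 ± 0.54 (95% interval -2.97 to -0.48, adjusted p = 0.051). This difference was called in 6 of 20 alternatives, among them the fit without RT-wt 1, which sorted Dio2 as weakened. Kcnk3, a potassium channel, read 772, 516 and 450 CPM in RT-wt, 1045, 1289 and 1197 in Cold-wt, 498, 569 and 563 in RT-ko and 456, 502 and 568 in Cold-ko, a difference of -1.12 ± 0.23 (adjusted p = 0.0041). Elovl3, a fatty acid elongase of cold brown fat, rose in both genotypes, by 1.84 ± 0.34 and 1.16 ± 0.33, and its difference was not called (-0.68 ± 0.46, adjusted p = 0.34).

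**Figure D3:**
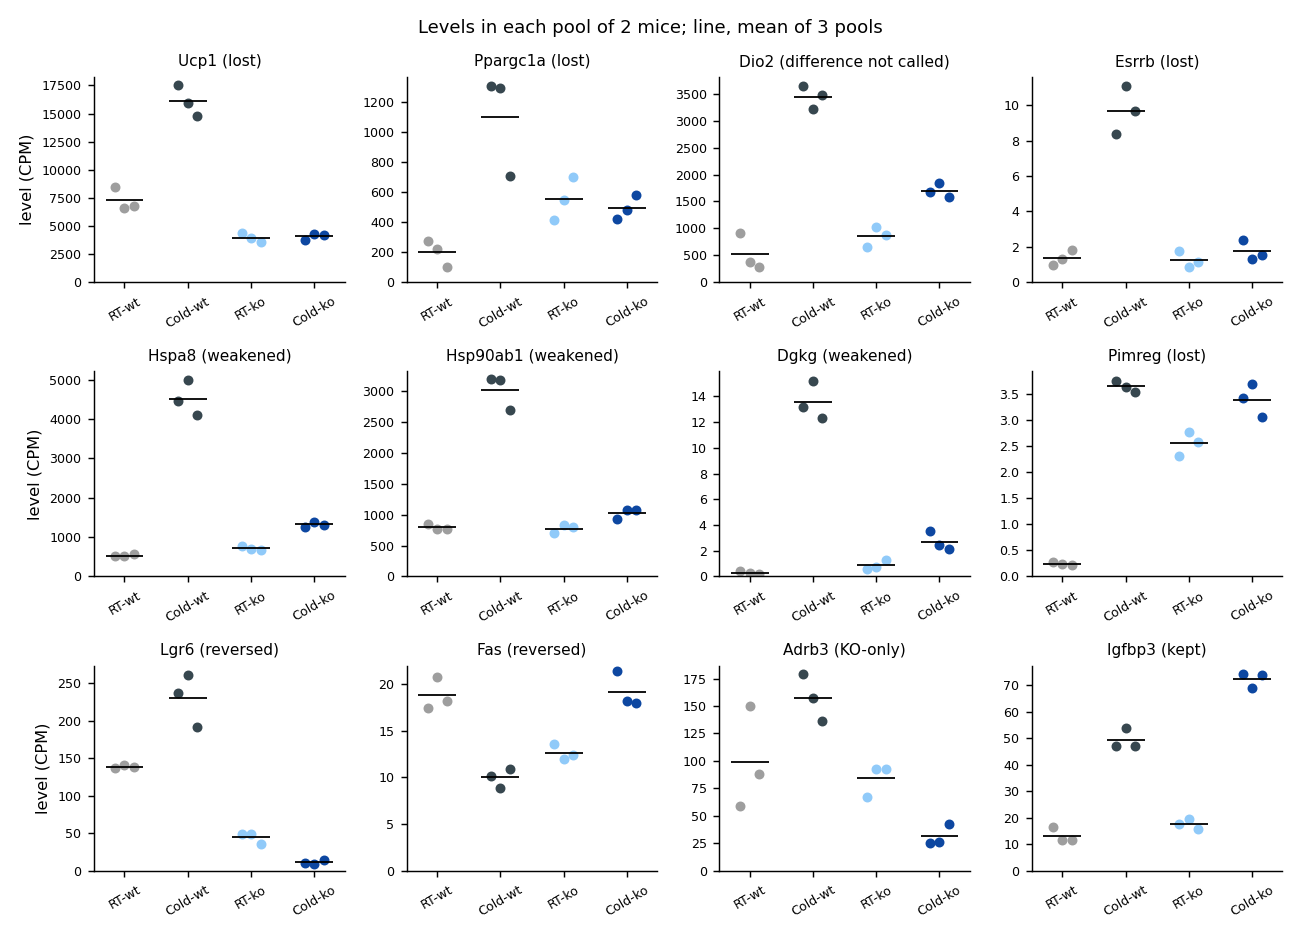
Levels (y axis, CPM) of 12 genes in each of the 12 pools (points) by group, with the mean of 3 pools as a line. Ucp1, Ppargc1a and Esrrb have a called rise in the controls alone. Hspa8, Hsp90ab1 and Dgkg rise less in Cold-ko than in Cold-wt, and Lgr6 and Fas move in opposite directions in the 2 genotypes.

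Heat shock chaperones were weakened rather than lost. These proteins bind unfolded clients, and their genes are switched on by the factor Hsf1 at heat shock elements near the start. Of 18 tested members, 16 rose in control cold and 16 in the knockout, where 1 fell, and 13 differed between genotypes, all with a lower knockout response. Of these, 12 were weakened, against 2.07% of all genes, and the median response went from 1.95 in the controls to 0.80 in the knockout. Among all genes that rose by 1 to 2 or by over 2 log2 units in the controls, 18.2% and 19.3% were weakened. With the muscle-rich libraries left out, 10 were weakened and 1 was lost, and under library totals alone 10 were weakened, with 1 difference higher and 10 lower.

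The promoters of several members carry the core of a heat shock element, spelled GAANNTTC, which reads the same on both strands. It is shown in capitals in 4 stretches of 200 bases that reach at most 30 bases past the gene start, taken from RefSeq on GRCm38.p6, 5′ to 3′ on the strand of the gene, for 3 weakened chaperones and for the kept Hspa1b. They lie at chr5:135887749-135887948 (plus), chr1:55087978-55088177 (plus), chr4:40722298-40722497 (plus) and chr17:34959209-34959408 (minus) in this order.
Hspb1: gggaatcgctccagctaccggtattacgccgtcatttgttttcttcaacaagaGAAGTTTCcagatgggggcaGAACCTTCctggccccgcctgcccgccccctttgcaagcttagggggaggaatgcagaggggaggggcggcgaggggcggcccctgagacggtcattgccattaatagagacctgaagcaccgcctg
Hspe1: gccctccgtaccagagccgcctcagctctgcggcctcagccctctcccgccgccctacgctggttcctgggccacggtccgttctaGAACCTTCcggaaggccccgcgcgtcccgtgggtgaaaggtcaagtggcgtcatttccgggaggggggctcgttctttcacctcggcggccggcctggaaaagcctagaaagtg
Dnaja1: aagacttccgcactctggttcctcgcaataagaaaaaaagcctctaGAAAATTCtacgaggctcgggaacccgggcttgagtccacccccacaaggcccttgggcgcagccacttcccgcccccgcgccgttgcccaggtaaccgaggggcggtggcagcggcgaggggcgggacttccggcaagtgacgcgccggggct
Hspa1b: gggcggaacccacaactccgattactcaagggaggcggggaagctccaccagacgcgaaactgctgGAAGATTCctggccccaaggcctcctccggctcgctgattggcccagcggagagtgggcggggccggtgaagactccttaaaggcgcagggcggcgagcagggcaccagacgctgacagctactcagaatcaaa
Hspb1 holds 2 matches, which begin 117 and 97 bases before the start, and Hspe1 1 match at 84 bases in a window it shares with the divergent gene Hspd1. Dnaja1 has the match at 124 bases before 1 of its 3 listed starts, and Hspa1b at 104 bases. Over 300 bases around each start, 57.9% of 19 promoters of 13 chaperones with an entry held the core, against 5.84% of 14205 promoters of 11109 tested genes. Among promoters of genes that rose in control cold, 14.3% of 189 for weakened, 5.82% of 1391 for lost and 7.57% of 502 for kept responses held it, and 10.8% of 176 for weakened genes without the chaperones. A match describes letters and not a bound site.

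Hspa8 (ENSMUSG00000015656, chromosome 9, 40800984 to 40810087, plus strand), the constitutive cytosolic Hsp70, had the largest difference of the list. It read 511, 512 and 566 CPM in RT-wt, 4464, 4987 and 4109 in Cold-wt, 768, 700 and 660 in RT-ko and 1254, 1393 and 1310 in Cold-ko. The groups did not overlap, so the knockout began higher and ended lower. It rose 8.53-fold in the controls and 1.86-fold in the knockout, a difference of -2.20 ± 0.14 on the log2 scale (adjusted p = 2.1e-07).

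Both cytosolic Hsp90 genes were weakened. Hsp90ab1 read 844, 773 and 774 CPM in RT-wt, 3201, 3187 and 2697 in Cold-wt, 697, 826 and 802 in RT-ko and 930, 1078 and 1074 in Cold-ko, a difference of -1.52 ± 0.14 (adjusted p = 5.6e-06). The 2 genotypes overlapped before cold and were far apart after it. Hsp90aa1 rose by 2.62 ± 0.16 in the controls and 1.03 ± 0.15 in the knockout (difference -1.59 ± 0.21, adjusted p = 0.00026).

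Other members began higher in the knockout. Hsph1, an Hsp70 exchange factor, read 27.9, 35.5 and 29.8 CPM in RT-wt and 70.6, 125 and 97.8 in RT-ko, but 432, 396 and 333 in Cold-wt and 360, 368 and 298 in Cold-ko. Hspb1, a small heat shock protein to which the first sequence above belongs, read 30.4, 29.6 and 35.7 in RT-wt, 64.2, 75.7 and 72.8 in RT-ko, 127, 129 and 102 in Cold-wt and 138, 139 and 131 in Cold-ko. In both genes the genotypes were separate before cold, and in the cold Hsph1 overlapped while Hspb1 was higher in every knockout pool. The differences were -1.83 ± 0.26 (adjusted p = 0.00063) and -0.96 ± 0.14 (adjusted p = 0.00029).

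The inducible Hsp70 genes rose the most and were sorted as kept. Hspa1a read 0.230, 0.512 and 0.408 CPM in RT-wt, 22.3, 14.5 and 10.2 in Cold-wt, 2.19, 1.84 and 1.70 in RT-ko and 60.3, 37.5 and 46.5 in Cold-ko, so the knockout lay higher at both temperatures. The responses were 5.29 ± 0.40 and 4.65 ± 0.32 for Hspa1a and 5.30 ± 0.53 and 4.27 ± 0.44 for its near-identical copy Hspa1b. The 95% intervals of their differences, -1.91 to 0.61 and -2.66 to 0.59, leave room for a weakening as large as that of other members. Dnajb4 was kept with responses of 0.64 ± 0.10 and 0.92 ± 0.10, and Hsf1 itself fell by 0.40 ± 0.11 in the knockout alone (difference -0.49 ± 0.16, adjusted p = 0.035).

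**Figure D4:**
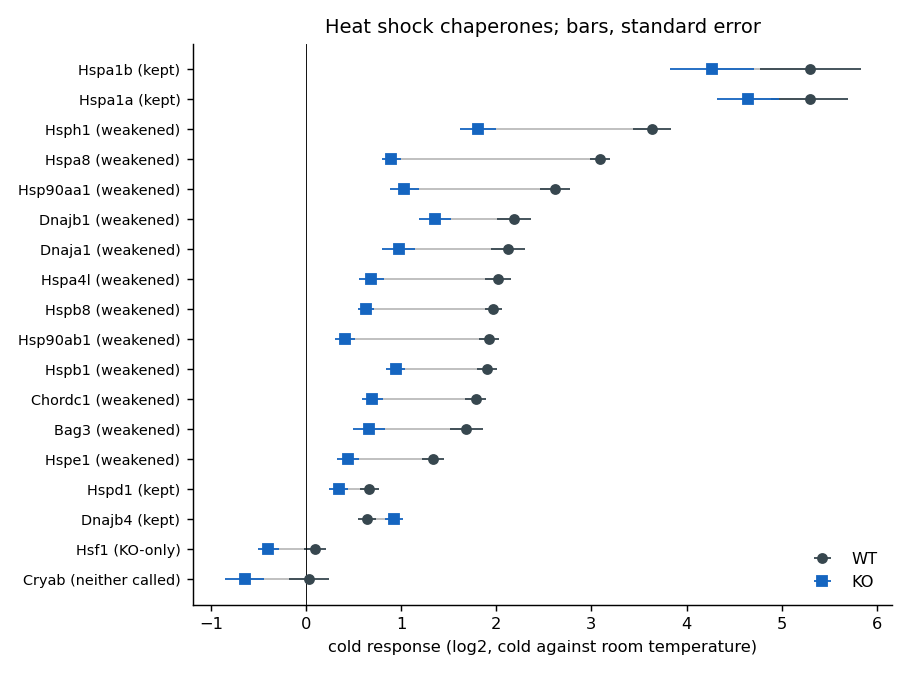
Cold response (x axis, log2) of 18 heat shock chaperone genes (y axis, with class) in controls (circles) and knockouts (squares), bars for the standard error. All 12 weakened genes have the knockout between 0 and the control response.

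Several genes of the cyclic AMP pathway differed. Of 22 tested genes for adrenergic receptors and cyclic AMP machinery, 7 differed, all with a lower knockout response. Over all genes 23.5% differed and 12.9% lay lower. Under library totals alone 1 differed in the higher and 4 in the lower direction. In control cold 6 rose and 5 fell, and in knockout cold 3 rose and 9 fell. Adrb3, the main beta receptor of mouse adipocytes (ENSMUSG00000031489, chromosome 8, 27225776 to 27250616, minus strand), read 59.3, 150 and 88.4 CPM in RT-wt, 179, 158 and 136 in Cold-wt, 66.9, 92.7 and 92.2 in RT-ko and 24.9, 25.8 and 42.6 in Cold-ko. The 3 Cold-ko pools were the lowest of all 12. The control response of 0.67 ± 0.35 was not called, the knockout response was -1.43 ± 0.36 (adjusted p = 0.030), and the difference was -2.10 ± 0.50 (adjusted p = 0.017). That difference was called in all 20 alternatives, while Adrb3 was KO-only in 11 of them and otherwise reversed or without a class.

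Adrb1, the other beta receptor tested with a called difference, was also KO-only. It read 36.6, 32.7 and 30 CPM in RT-wt, 32.6, 35.1 and 43.0 in Cold-wt, 17.9, 25.8 and 17.2 in RT-ko and 10.9, 10.7 and 13.6 in Cold-ko, a difference of -0.95 ± 0.22 (adjusted p = 0.0075). Among adenylyl cyclases, which make cyclic AMP, Adcy3 lost a control response of 1.35 ± 0.20 (difference -1.13 ± 0.27), Adcy6 lost one of 0.37, and Adcy4 reversed from 0.55 ± 0.10 to -0.41 ± 0.10. The call for Adcy3 ended without the muscle-rich libraries (adjusted p = 0.0561), and that for Adcy6 under library totals alone. Prkar1a, a regulatory subunit of protein kinase A, was weakened, from 0.92 ± 0.10 to 0.39 ± 0.10 (adjusted p of the difference 0.012), and among phosphodiesterases, which break down cyclic AMP, Pde4d kept a rise of 0.82 and 0.70 while Pde4a fell in the knockout alone (difference -0.70 ± 0.19, adjusted p = 0.017). The call for Pde4a ended both under library totals alone and without the muscle-rich libraries.

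Transcription factors induced by cyclic AMP or as immediate-early genes moved in both directions. Of 29 tested, 8 differed, a share near the 23.5% of all genes, 5 with a higher and 3 with a lower knockout response, and the median difference of -0.04 turned to 0.12 under library totals alone. Maff read 4.60, 3.21 and 3.87 CPM in RT-wt, 15.6, 16.8 and 11.5 in Cold-wt, 10.7, 11.5 and 10.1 in RT-ko and 18.5, 16.9 and 22.8 in Cold-ko. Its knockout level was already raised before cold, and the difference was -1.07 ± 0.22 (adjusted p = 0.0025). Jund, Ier2, Ier3, Btg2 and Myc lost a response, of which those of Ier3, Btg2 and Myc were falls in the controls. Btg2 was lost in 7 of 20 alternatives and reversed in most of the others. Atf3 and Crem kept theirs. Atf3, a stress-induced factor, read 7.05, 2.76 and 1.74 CPM in RT-wt, 13.1, 12.4 and 11.4 in Cold-wt, 13.6, 19.6 and 17.4 in RT-ko and 84.6, 59.4 and 72.5 in Cold-ko, so that all 3 Cold-ko pools lay far above the rest at a similar log2 response (1.73 ± 0.43 and 2.10 ± 0.38). Fos, sorted as KO-only, had a difference of 1.59 ± 0.38 (adjusted p = 0.0066), called in all 20 alternatives, but was KO-only in 9 of them and otherwise reversed, lost or without a class.

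The full cyclic AMP response element, TGACGTCA, which also reads the same on both strands, was present in the promoters of Dio2 and Maff. It is in capitals in the following 100 bases of each, at chr12:90739080-90739179 (minus strand) and chr15:79347445-79347544 (plus strand), from the same RefSeq table.
Dio2: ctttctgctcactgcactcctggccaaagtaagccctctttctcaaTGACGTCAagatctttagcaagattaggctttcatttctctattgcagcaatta
Maff: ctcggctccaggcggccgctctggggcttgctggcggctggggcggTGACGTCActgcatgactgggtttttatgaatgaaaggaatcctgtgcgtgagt
The matches begin 95 bases before the RefSeq start of Dio2, which lies upstream of the gene bounds given above from another annotation, and 29 bases before 1 of 3 RefSeq starts of Maff. Over 300-base promoters the element was in 2.82% of those of all tested genes. Among genes that rose in control cold it was in 6.88% for weakened, 3.31% for lost, 3.59% for kept and 5.21% for those called in the controls alone without a called difference. It was in 7.80% of 205 promoters of KO-only genes that fell. Maff was weakened, and the difference of Dio2 narrowly missed the threshold. The part of the element in either response was not tested.

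Genes of fuel supply lost responses in both directions. Of 27 tested genes that take up or oxidise fatty acids, 10 were lost, with 5 differences on each side, and 2 kept. Over all genes, 17.4% were lost and 6.71% kept. Lpl, which frees fatty acids from circulating lipoproteins, read 7695, 5811 and 5216 CPM in RT-wt, 12050, 11740 and 11020 in Cold-wt, 4962, 5159 and 4869 in RT-ko and 5557, 5960 and 5548 in Cold-ko. All Cold-ko pools lay above all RT-ko pools, yet the knockout response of 0.19 ± 0.12 was not called, and the difference was -0.71 ± 0.17 (adjusted p = 0.0076). Fabp3, a fatty acid carrier, read 370, 196 and 243 CPM in RT-wt, 503, 767 and 562 in Cold-wt, 116, 101 and 77.8 in RT-ko and 37.3, 29.1 and 65.6 in Cold-ko (difference -2.34 ± 0.50, adjusted p = 0.011). Its knockout response of -1.16 ± 0.36 missed the threshold (adjusted p = 0.063), and Fabp3 was lost in 11 of 20 alternatives and otherwise reversed or without a class. Slc27a1, a fatty acid transport protein, lost a fall of 1.11 ± 0.13, with a difference of 1.09 ± 0.19. In the fit without muscle-rich libraries 3 of the list were lost.

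Lipolysis and droplet genes gave 5 differences among 15, 1 higher and 4 lower, where 23.5% of all genes differed. Library totals alone gave 1. Hormone-sensitive lipase, Lipe, fell by 0.94 ± 0.11 in the controls and 0.93 ± 0.11 in the knockout (95% interval of the difference -0.30 to 0.33). Plin5, a droplet protein that links droplets to mitochondria, read 172, 175 and 196 CPM in RT-wt, 202, 201 and 218 in Cold-wt, 135, 127 and 104 in RT-ko and 87.5, 89.2 and 80.0 in Cold-ko. It was lower in every Cold-ko pool than in every other pool, with a difference of -0.70 ± 0.14 (adjusted p = 0.0017) that ended under library totals alone (adjusted p = 0.0647).

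Triglyceride synthesis moved in opposite directions within the lipogenic list. Of 22 tested genes, 4 rose and 11 fell in control cold, and 1 rose and 6 fell in knockout cold. Differences were called for 9, 4 higher and 5 lower, where 23.5% of all genes differed. Gpam, which begins glycerolipid synthesis, read 545, 505 and 467 CPM in RT-wt, 889, 1079 and 916 in Cold-wt, 258, 306 and 302 in RT-ko and 227, 276 and 262 in Cold-ko (difference -1.11 ± 0.15, adjusted p = 0.00014). It rose in the controls alone. The last step of the pathway is shared by Dgat1 and Dgat2. Dgat1 lost a rise of 1.42 ± 0.13, while Dgat2 fell in both genotypes and was weakened, reading 1307, 1465 and 1448 CPM in RT-wt, 394, 335 and 323 in Cold-wt, 614, 355 and 413 in RT-ko and 243, 278 and 259 in Cold-ko (difference 1.18 ± 0.22, adjusted p = 0.0021). Lpin1, which makes diacylglycerol, fell only in the knockout, from 570, 485 and 505 CPM to 243, 295 and 265, while controls read 524, 529 and 592 and then 519, 517 and 560 (difference -0.92 ± 0.13, adjusted p = 0.00026). The regulators Srebf1 and Mlxipl kept falls of 1.82 and 1.51, and of 1.17 and 1.07. Leaving out muscle-rich libraries, 1 difference was higher and 3 lower.

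Of 22 tested genes of glucose uptake and glycolysis, 10 rose in control cold and 1 in the knockout, and 10 differed, 1 higher and 9 lower, where 23.5% of all genes differed and 12.9% lay lower. Lost rises were those of Hk1, Gpi1, Pfkp, Aldoa, Tpi1, Gapdh and Pkm, a run of glycolytic enzymes. Pfkp, a subunit of phosphofructokinase, read 182, 140 and 147 CPM in RT-wt, 300, 354 and 326 in Cold-wt, 170, 161 and 162 in RT-ko and 178, 189 and 184 in Cold-ko (difference -0.90 ± 0.14, adjusted p = 0.00034). The glucose transporter of the basal state, Slc2a1, kept a rise of 0.90 and 0.75. The insulin-responsive transporter, Slc2a4, fell only in the knockout, from 442, 353 and 396 CPM to 255, 278 and 258, with controls at 327, 435 and 448 and then 451, 435 and 441 (difference -0.72 ± 0.16, adjusted p = 0.0036). Under library totals alone 1 difference was higher and 2 lower in this list, and those of Slc2a4 and Gapdh were not called.

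Creatine cycling genes lost their rise. Ckb, a creatine kinase, read 15.1, 13.6 and 13.4 CPM in RT-wt, 62.1, 66.8 and 46.0 in Cold-wt, 17.8, 10.4 and 11.7 in RT-ko and 17.3, 14.8 and 13.6 in Cold-ko (difference -1.86 ± 0.27, adjusted p = 0.00086). Only the Cold-wt pools stood apart. Alpl, a phosphatase that can act on phosphocreatine, lost a rise of 1.60 ± 0.17 (difference -1.37 ± 0.23, adjusted p = 0.0014). The creatine transporter Slc6a8 and the calcium pump Atp2a2 lost smaller rises, of 0.56 and 1.01, and these 2 differences were not called under library totals alone, where 1 other member lay higher. These were the 4 of 10 tested members that differed, all lower, where 23.5% of all genes differed and 12.9% lay lower. The list median of 0.44 was positive, and the list also holds Ckm, Ckmt2 and Atp2a1, muscle-type genes with fitted differences of 1.73 ± 3.23, 1.95 ± 2.74 and 1.73 ± 3.0.

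Catabolism of branched-chain amino acids showed the opposite sign. Of 20 tested genes, 2 rose and 7 fell in control cold, and 1 rose and none fell in the knockout. Differences were called for 7, 6 higher and 1 lower, where 23.5% of all genes differed and 10.6% lay higher. Ppm1k, the phosphatase that activates the pathway's committed enzyme, read 20.1, 27.5 and 20.4 CPM in RT-wt, 7.38, 9.44 and 9.76 in Cold-wt, 9.09, 6.26 and 7.99 in RT-ko and 9.56, 8.35 and 7.83 in Cold-ko (difference 1.5 ± 0.22, adjusted p = 0.00029). All knockout pools thus lay within or near the range of Cold-wt, and well below RT-wt. The 1 lower difference was that of Slc25a44, the mitochondrial carrier of these amino acids, which lost a rise of 0.38. Under library totals alone 11 members differed, all higher, and 4, all higher, without the muscle-rich libraries.

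Few respiratory chain genes differed, and their number depended on the tool. Of 25 nuclear-encoded subunits 1 differed, against 23.5% of all genes. This was Ndufs3, with a higher knockout response (0.57 ± 0.15), and no subunit differed without the muscle-rich libraries. DESeq2 also called 1, while voom called 7 higher and 1 lower. Of 9 tested mitochondrially encoded genes edgeR called none, with 1 at an unadjusted p below 0.05, DESeq2 called 1 higher, and voom 1 higher and 4 lower.

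Genes of protein folding in the endoplasmic reticulum lost about as many rises as falls. Of 20 tested genes of the unfolded protein response, 10 rose and 6 fell in control cold against 1 and 2 in the knockout, and 9 were lost, against 17.4% of all genes. Manf, a secreted folding factor, read 24.1, 22.2 and 25.1 CPM in RT-wt, 68.6, 64.4 and 68.4 in Cold-wt, 35.3, 44.1 and 42.5 in RT-ko and 41.1, 42.9 and 42.6 in Cold-ko (difference -1.44 ± 0.12, adjusted p = 3.7e-06). The knockout pools stayed in a narrow range between the control groups. Calr, Canx, Syvn1 and Atf6 lost rises, and Xbp1, Pdia4, Pdia6 and Edem1 lost falls. Hspa5, the main chaperone of this compartment, was kept, with rises of 0.58 and 0.40. In the fit without muscle-rich libraries 4 of the 20 were lost. In the integrated stress response, 3 of 20 tested genes were lost, where 17.4% of all genes were, and all 3 lost rises. Among them was Atf5, which read 90.7, 80.8 and 94.3 CPM in RT-wt, 256, 214 and 229 in Cold-wt, 92.0, 75.5 and 82.0 in RT-ko and 95.4, 89.6 and 95.4 in Cold-ko (difference -1.23 ± 0.13, adjusted p = 1.8e-05). Atf4, the factor at its centre, was kept, at 1.28 and 0.61.

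Among secreted factors, Metrnl was weakened, from 1.60 ± 0.16 to 0.60 ± 0.16 (adjusted p of the difference 0.0048, and 0.0595 under library totals alone). Fgf21 and Gdf15 were lost at low levels, Fgf21 in 12 of 19 alternatives. Gdf15 read 0.0383, 0.0569 and 0.136 CPM in RT-wt, 0.600, 0.408 and 0.596 in Cold-wt, 2.38, 3.15 and 1.14 in RT-ko and 4.0, 2.52 and 4.04 in Cold-ko. Every knockout pool lay above every control pool, and the difference (-2.02 ± 0.65, adjusted p = 0.033) was called in 11 of 20 alternatives. Adipoq, which encodes adiponectin, lost a fall of 0.58.

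Many regulators of transcription by RNA polymerase II rose in control cold. Of 28 tested regulators of transcription elongation and RNA polymerase II, 19 rose and 2 fell in the controls, where 23% and 23.2% of all genes did. In the knockout 3 rose and 1 fell, where 7.29% and 7.56% of all genes did. Of the 28, 7 differed, 1 higher and 6 lower, a share near the 23.5% of all genes. Supt5, a subunit of the elongation factor DSIF, read 63.6, 56.2 and 60.6 CPM in RT-wt, 172, 177 and 148 in Cold-wt, 79.4, 93.6 and 94.4 in RT-ko and 117, 132 and 126 in Cold-ko. It rose in both genotypes without overlap, and less in the knockout (difference -0.97 ± 0.13, adjusted p = 0.00015). Lost rises included those of the mediator subunit Med1 (0.77 ± 0.10) and of Med14, Nelfa and Hexim1. Cdk19, a mediator kinase, lost a fall of 0.90. Of 10 tested subunits of TFIIH and its kinase, 3 rose and none fell in control cold, and none rose and 1 fell in the knockout. Among these 10, 2 differed (23.5% of all genes did), Gtf2h3 and Gtf2h4, both lower. Gtf2h3 was not called under library totals alone, and Gtf2h4 was called in 7 of 20 alternatives and not without the muscle-rich libraries. With the muscle-rich libraries left out, 4 of the 28 elongation and polymerase genes differed, 1 higher and 3 lower, as many as under library totals alone, while voom called 1 higher and 13 lower.

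Of 18 tested genes of the circadian clock 5 were kept, 3 lost and 1 weakened, where 6.71%, 17.4% and 2.07% of all genes were. Without the muscle-rich libraries 3 were kept. The activator Arntl read 8.70, 4.04 and 4.71 CPM in RT-wt, 32.7, 30.4 and 29.8 in Cold-wt, 6.76, 6.93 and 5.61 in RT-ko and 27.1, 19.6 and 17.8 in Cold-ko. It rose in every cold pool of both genotypes (2.43 ± 0.26 and 1.74 ± 0.25). Its partner Clock rose only in the controls, from 72.0, 72.0 and 64.7 to 128, 131 and 126 CPM, and not in the knockout, at 59.4, 90.1 and 74.9 and then 80.0, 76.5 and 76.0 (difference -0.83 ± 0.16, adjusted p = 0.0014). The repressor Nr1d1 also lost a rise, of 1.28 ± 0.16, and Rora a fall.

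Many interferon-stimulated genes fell in control cold. Of 17 tested, 11 fell and none rose in the controls, and 1 rose and none fell in the knockout. Differences were called for 5, all higher, where 23.5% of all genes differed and 10.6% lay higher. For 7 of the 17 a fall was called in the controls alone and the difference was not called. The RNA sensor Ifih1 read 9.70, 9.53 and 11.5 CPM in RT-wt, 5.10, 3.90 and 5.14 in Cold-wt, 8.78, 7.85 and 8.15 in RT-ko and 9.28, 8.24 and 7.34 in Cold-ko (difference 1.12 ± 0.19, adjusted p = 0.00070). Only the Cold-wt pools stood apart. The list median was -0.65 in the controls and 0.00 in the knockout, and 7 genes differed when the muscle-rich libraries were left out and 12 under library totals alone, all higher. Macrophage markers moved with genotype. Their 15 genes summed to 86.3 to 116 CPM in RT-wt, 122 to 127 in Cold-wt, 289 to 414 in RT-ko and 343 to 471 in Cold-ko, and edgeR called none of their differences (2 at an unadjusted p below 0.05, 1 called by DESeq2 and 2 by voom). Their part in the interferon values was not tested.

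Among targets of p53, which guards against DNA damage, more called differences lay higher than lower. Of 18 tested, 5 were higher and 1 lower, where 10.6% and 12.9% of all genes were and 23.5% differed. The median response was -0.26 in control cold and 0.34 in the knockout. Fas, a death receptor (ENSMUSG00000024778, chromosome 19, 34290666 to 34327772, plus strand), read 17.4, 20.8 and 18.2 CPM in RT-wt, 10.1, 8.89 and 10.9 in Cold-wt, 13.6, 11.9 and 12.4 in RT-ko and 21.3, 18.2 and 17.9 in Cold-ko. It fell in the controls by 0.91 ± 0.11 and rose in the knockout by 0.60 ± 0.11, without overlap in either genotype (difference 1.51 ± 0.15, adjusted p = 1.1e-05). Trp53inp1 reversed in the same manner, from 21.4, 22.1 and 28.6 CPM to 13.7, 12.9 and 16.5 in the controls and from 22.1, 24.8 and 24.2 to 43.5, 34.0 and 32.7 in the knockout (difference 1.38 ± 0.19, adjusted p = 0.00016). Aen was weakened and Mdm2, Zmat3 and Phlda3 were kept. In the cell cycle list 4 of 18 tested genes differed, a share near the 23.5% of all genes, of which Top2a reversed from -0.86 to 0.89 and Mki67 was called in 10 of 20 alternatives. Leaving out muscle-rich libraries, 2 of the cell cycle genes differed.

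Among matrix genes, Col4a1, a basement membrane collagen, read 457, 364 and 360 CPM in RT-wt, 1307, 1265 and 1110 in Cold-wt, 613, 816 and 728 in RT-ko and 1047, 1209 and 1191 in Cold-ko, and with its neighbour Col4a2 it was weakened (differences -0.96 ± 0.17 and -0.99 ± 0.18). The knockout began higher and the genotypes overlapped in the cold. In all, 6 of 20 matrix genes differed, 1 higher and 5 lower, where 23.5% of all genes differed and 12.9% lay lower. They were Col4a1, Col4a2, Col6a1, Col6a2, Lox and Col15a1. Differences were also called for 6 of 11 endothelial markers, 3 on each side, including the junction gene Cldn5, which rose by 1.14 in the controls alone. Of the endothelial markers, 2 lay higher and 1 lower without the muscle-rich libraries, and 4 higher and 1 lower under library totals alone. By edgeR's test no marker of lymphocytes (10 tested), neutrophils and mast cells (6) or erythrocytes (5) had a called difference, with 3, 2 and 1 at an unadjusted p below 0.05. DESeq2 called 0, 1 and 0 of them, and voom 1, 1 and 0. Among 10 fibroblast and 10 smooth muscle markers 1 each did.

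**Figure D5:**
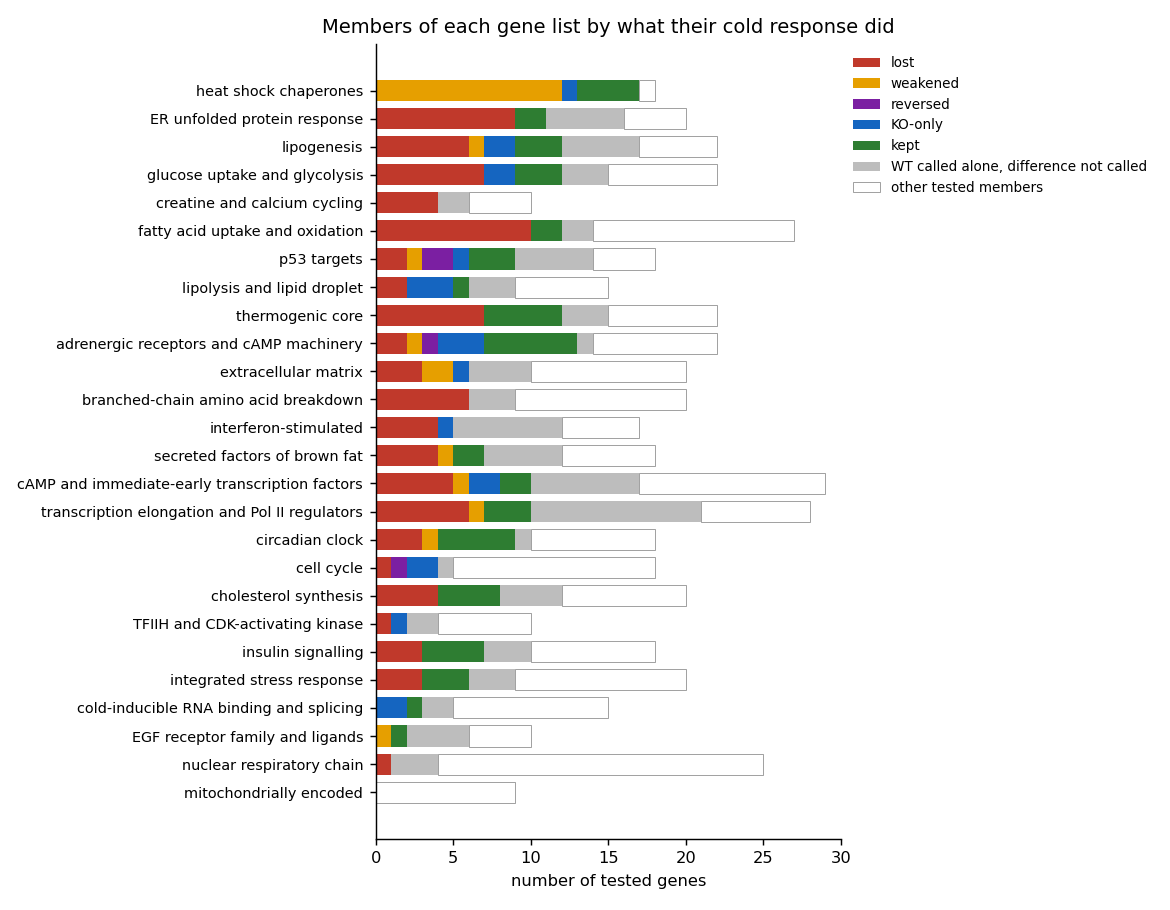
Number of tested genes (x axis) of 26 gene lists (y axis) in each class. Heat shock chaperones hold 12 weakened genes, the unfolded protein response 9 lost of 20, and the nuclear respiratory chain 1 lost of 25.

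The largest differences were ranked among called genes with an official symbol and a mean level of at least 1 log2 CPM. Most negative was that of Dgkg, a diacylglycerol kinase (ENSMUSG00000022861, chromosome 16, 22468461 to 22657221, minus strand). It read 0.383, 0.284 and 0.218 CPM in RT-wt, 13.2, 15.2 and 12.3 in Cold-wt, 0.575, 0.763 and 1.24 in RT-ko and 3.51, 2.41 and 2.13 in Cold-ko. It rose 46.5-fold in the controls and 3.16-fold in the knockout, a difference of -3.88 ± 0.40 (adjusted p = 1.2e-05). Pimreg, a mitotic regulator, followed with -3.52 ± 0.28 (adjusted p = 1.3e-06) through another route. It read 0.268, 0.228 and 0.218 CPM in RT-wt and 3.75, 3.63 and 3.54 in Cold-wt, but 2.30, 2.77 and 2.58 in RT-ko and 3.41, 3.69 and 3.05 in Cold-ko, so the knockout stood near the cold level already at room temperature. Hpx, which encodes the haem carrier hemopexin, had both features, at 0.460, 0.484 and 0.381 CPM in RT-wt, 11, 11.2 and 6.48 in Cold-wt, 2.90, 1.91 and 1.53 in RT-ko and 7.33, 6.16 and 6.01 in Cold-ko (difference -2.82 ± 0.37). Lclat1, a lysocardiolipin acyltransferase, read 94.1, 57.5 and 50.7 CPM in RT-wt, 479, 413 and 325 in Cold-wt, 124, 182 and 213 in RT-ko and 119, 150 and 132 in Cold-ko. It was lost from a raised start (difference -2.97 ± 0.39, adjusted p = 0.00095). The others among the 10 were Acot5, B4galnt2, Lgr6, Ppargc1a, Fabp3 and Esrrb, at -3.41 to -2.33.

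The largest positive differences included falls that the knockout did not make. Angpt1, a ligand of the endothelial Tie2 receptor, read 17.6, 26.7 and 25.9 CPM in RT-wt, 2.17, 1.54 and 1.79 in Cold-wt, 7.53, 4.51 and 5.87 in RT-ko and 5.69, 3.12 and 4.29 in Cold-ko (difference 3.21 ± 0.36, adjusted p = 0.00014). The knockout pools lay between the control groups and overlapped each other. Sntb1, a syntrophin, fell 7.14-fold in the controls, from 55.1, 52.6 and 50.1 to 6.11, 7.62 and 8.38 CPM, and by 0.23 ± 0.12 in the knockout, from 33.0, 24.5 and 25.9 to 25.6, 23.5 and 21.8 (difference 2.60 ± 0.17, adjusted p = 2.1e-07). Hcar1, the lactate receptor of adipocytes, was weakened, from 32.7, 33.6 and 29.1 to 1.24, 1.77 and 3.31 CPM in the controls and from 15.7, 10.2 and 11.7 to 4.63, 6.29 and 5.83 in the knockout (difference 2.73 ± 0.38). Ano1, a chloride channel, was weakened as well (2.31 ± 0.22). Map2k6, a kinase upstream of p38, lost a fall of 2.34 ± 0.27, and Cfap53 and Resf1, both KO-only, were also among the 10, with Acat3, Zfp185 and Ncapg2. The call for Acat3 ended without the muscle-rich libraries (adjusted p = 0.0546).

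Reversed responses were few, and 91 of the 126 were rises in the controls. The strongest was that of Lgr6, a receptor for R-spondins (ENSMUSG00000042793, chromosome 1, 134983301 to 135105276, minus strand). It read 136, 141 and 138 CPM in RT-wt, 238, 261 and 192 in Cold-wt, 48.3, 48.9 and 35.5 in RT-ko and 9.76, 8.38 and 14.6 in Cold-ko. The 4 groups did not overlap. It rose 1.66-fold in the controls and fell 4.07-fold in the knockout, a difference of -2.76 ± 0.27 (adjusted p = 7.8e-05). Kcnc4, a potassium channel, read 1.84, 1.68 and 1.88 CPM in RT-wt, 4.35, 4.17 and 3.58 in Cold-wt, 3.39, 7.59 and 5.41 in RT-ko and 2.28, 2.66 and 2.81 in Cold-ko, a difference of -2.24 ± 0.32. Rgl3, an effector of Ras, read 36.0, 39.7 and 44.2, then 75, 80.2 and 81.7 in the controls, and 30.4, 28.4 and 33.9, then 20.5, 22.8 and 22.5 in the knockout (-1.47 ± 0.13, adjusted p = 4e-06). In the other direction, Ugdh, an enzyme of glucuronate synthesis, fell from 10.1, 12.8 and 12.2 to 6.22, 6.81 and 5.59 in the controls and rose from 10.5, 11.8 and 10.8 to 20.1, 15.3 and 20.1 in the knockout (1.66 ± 0.18). In the cold, 116 of the 126 differed between genotypes on the side opposite to the control response. The fit without the muscle-rich libraries called 41 reversed responses.

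Responses of the knockout alone rose for 128 genes and fell for 192. Cfap53, which belongs to cilia, read 0.652, 0.484 and 0.708 CPM in RT-wt, 0.262, 0.454 and 0.559 in Cold-wt, 1.23, 2.22 and 1.47 in RT-ko and 10.4, 12.0 and 8.79 in Cold-ko (difference 3.20 ± 0.40, adjusted p = 6.7e-05). Resf1, a silencer of retroelements, read 58.0, 102 and 27.1 CPM in RT-wt, 72.1, 64.9 and 66.7 in Cold-wt, 51.4, 54.6 and 49.0 in RT-ko and 270, 319 and 238 in Cold-ko (2.29 ± 0.55, adjusted p = 0.018). In both, every Cold-ko pool lay above every other pool. In a list of 15 cold-inducible RNA-binding and splicing genes, 2 differed, the splicing regulators Tra2a and Tra2b, against 23.5% of all genes. Library totals alone called 5 of the list, all higher. Tra2a read 68.4, 85.5 and 79.0 CPM in RT-ko and 124, 110 and 119 in Cold-ko, with all 6 control pools between 55.7 and 68.2 (difference 0.66 ± 0.13, adjusted p = 0.0020). Among falls, the tubulin gene Tuba8 read 67.9, 35.8 and 44.4 CPM in RT-ko and 13.8, 16.9 and 18.4 in Cold-ko, against 51.3 to 78.5 in the control pools (-1.95 ± 0.30, adjusted p = 0.0014).

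For 846 of the 1020 kept genes the 95% interval of the difference lay inside 1 log2 unit on either side of 0. Igfbp3, a binding protein of insulin-like growth factors, read 16.6, 11.7 and 11.4 CPM in RT-wt, 47.1, 54.0 and 47.2 in Cold-wt, 17.7, 19.6 and 15.9 in RT-ko and 74.4, 68.9 and 74.1 in Cold-ko, rises of 1.91 ± 0.13 and 2.03 ± 0.12 (95% interval of the difference -0.24 to 0.49). Ttpa, a carrier of vitamin E, read 2.07, 1.79 and 2.61 CPM in RT-wt, 15.9, 13.6 and 16.8 in Cold-wt, 2.0, 2.80 and 2.25 in RT-ko and 26.9, 22.3 and 16.2 in Cold-ko, rises of 2.83 ± 0.20 and 3.22 ± 0.19. In both, the cold pools of either genotype stood apart from its warm pools. Of the falling genes, Gipr, the receptor of an incretin, read 3.11, 2.42 and 3.16 CPM, then 1.01, 0.907 and 0.819 in the controls and 5.64, 5.05 and 4.21, then 1.49, 1.9 and 1.57 in the knockout (-1.66 ± 0.21 and -1.58 ± 0.18). The lipoprotein receptor Vldlr fell by 1.44 ± 0.16 and 1.06 ± 0.16 from different starts, 152, 212 and 179 CPM in RT-wt and 70.3, 74.3 and 60.1 in RT-ko.

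Strengthened responses were rare, at 18 genes. The largest was that of Col12a1, a fibril-associated collagen, which read 36.2, 37.4 and 34.7 CPM in RT-wt, 48.7, 44.5 and 48.8 in Cold-wt, 13.7, 14.2 and 11.6 in RT-ko and 42.2, 41.9 and 40.4 in Cold-ko. It began lower in the knockout and ended just below the controls, with a difference of 1.26 ± 0.12 (adjusted p = 5.5e-06).

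Reads shared with an overlapping annotated gene make the values of some named genes uncertain, among them Adrb3, Angpt1, Atf5, Col4a1, Dgkg, Dio2, Fabp3, Hk1, Hspd1, Kcnk3, Manf, Nr1d1, Pfkp, Supt5 and Ugdh, and those of Hspa1a and Hspa1b rest on reads placed in only 1 of the copies. With 3 pools a group, a difference of 2-fold can miss the threshold, so that a response without a call is not an absent one.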

How the data were processed

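RNA of 2 mice was pooled for each of 12 libraries of interscapular brown fat. The authors deposited a file of read counts per gene for each library, aligned with STAR and counted with HTSeq on GRCm38, per the submitters' processing notes, with versions not given in the sources used here. Reads with several alignments (26.6 to 30.2%) were in no gene, which lowers genes with close copies, Hspa1a and Hspa1b among them. Reads outside genes (1.64 to 2.26%), ambiguous reads (1.07 to 1.37%) and unaligned reads (1.12 to 1.86%) were listed apart and left out. The counts of 15208 genes that passed filterByExpr were fitted, with TMM scaling and 1 mean per group, by edgeR 4.0.16's robust quasi-likelihood test in R 4.3.3. Every p in the text is from that test unless another tool is named, adjusted by Benjamini-Hochberg over all tested genes, and called below 0.05. Standard errors came from the F statistic, and 95% intervals from its degrees of freedom. The common biological coefficient of variation between pools was 13.6%. The fit was tested on simulated data.

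DESeq2 1.42.0, limma 3.58.1 (voom), other scalings, filters and thresholds, each library left out in turn, and a fit without RT-wt 2 and RT-ko 6 were tried as alternatives. Replicate numbers 1 to 3 were not treated as pairs. Deviations of libraries with the same number correlated at -0.306 to 0.229. Libraries with different numbers were not compared, so these values cannot decide whether the numbers pair libraries. Every pair of libraries of a group differed beyond counting noise. RT-wt 1 stood furthest from its group, with a chi-square per degree of freedom of 98.5 and 70.8 against RT-wt 2 and 3. Other pairs gave 11.3 to 47.0. RT-wt 1 also held the largest share of mitochondrially encoded reads (42.5%). Genes named were Cdk7, Ucp1, Ppargc1a and Dio2, and members of the gene lists. Others were the 10 largest called differences in each direction and the leading genes of each class. These others had an official symbol and a mean level of at least 1 log2 CPM. The genes and lists were chosen with earlier results of these data known. Promoters were matched by symbol to RefSeq (GRCm38.p6), with entries for 11109 tested genes. The kit behind the strand setting is not given here, so genes that overlap another are uncertain.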

Additional observations from a re-analysis of the deposited data

Results flagged for a closer look

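The cold response differed between genotypes by the test of the difference itself for 3581 genes, and for 126 of these it was called in opposite directions. No rule for a single outlying library was applied to groups of 3 libraries. Genes of opposite sign that the text names or that led this class were, with a lower knockout response, Lgr6 (log2 difference -2.76), Kcnc4 (-2.24), Rgl3 (-1.47), Nes (-1.31), Slc29a1 (-1.25), Cyp2u1 (-1.19) and Adcy4 (-0.97). With a higher knockout response they were Pbld1 (1.75), Top2a (1.74), Fam13c (1.71), Fam107b (1.70), Ugdh (1.66), Fas (1.51) and Trp53inp1 (1.38).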

How the results depend on the processing

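Over the alternatives for single named genes, 3310 values kept direction and side of the threshold, 167 lost the call, 62 gained one and 12 changed sign. Library totals alone gave 1476 cold responses in the knockout, 180 weakened, 7 strengthened, 65 reversed and 192 KO-only responses. Without a filter beyond 1 count there were 501 weakened and 39 strengthened. Limma voom gave 4155 knockout responses, 662 weakened, 33 strengthened, 439 reversed and 643 KO-only. Without RT-wt 2 and RT-ko 6 there were 1903 differences, 1214 knockout responses, 1516 lost, 123 weakened, 6 strengthened, 592 kept, 41 reversed and 140 KO-only. At an adjusted p below 0.01 there were 1729 differences, 968 knockout responses, 1416 lost, 87 weakened, 2 strengthened, 480 kept, 25 reversed and 102 KO-only, and below 0.1 there were 562 weakened, 43 strengthened, 267 reversed and 495 KO-only. The cause of these shifts was not tested, beyond fewer libraries or another threshold.

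Leaving out 1 library at a time gave 1171 to 2568 knockout responses, 141 to 419 weakened, 8 to 21 strengthened, 602 to 1271 kept, 42 to 172 reversed and 142 to 361 KO-only. Differences ran from 2579 to 4014, the largest number without RT-wt 1, and lost responses from 1916 to 3079. Knockout responses moved most without Cold-ko 1 (1171), Cold-ko 2 (1274) and RT-ko 6 (1328), and without these, in the same order, KO-only genes were 142, 190 and 179, and reversed genes 42, 59 and 62. Reversed genes were 70 without Cold-wt 2 and 79 without RT-wt 3. Weakened genes were 192 without RT-ko 4, 162 without RT-ko 6 and 163, 141 and 203 without Cold-ko 1, 2 and 3. Kept genes were 649 without RT-ko 4, 672 without RT-ko 6, 602 without Cold-ko 1 and 630 without Cold-ko 2. Strengthened genes were 10 and 8 without RT-wt 1 and 3, and 11, 8 and 9 without Cold-wt 1, 2 and 3.

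Values near 0 changed sign. The difference of Cdk7 was 0.19 under library totals, 0.020 without a filter, 0.0035 with a strict filter and 0.11 without the muscle-rich libraries, and ran from -0.13 to 0.073 when 1 library was left out. Ccl9 gave 0.052 under library totals, Igfbp3 ran from -0.056 (without RT-wt 1) to 0.23, and Gipr gave -0.034 and -0.039 without RT-ko 6 and Cold-ko 2. The difference could not be fitted with a replicate block, since RT-ko carries numbers 4 to 6. With a replicate block on the other 9 libraries the cold changed 6671 genes in the controls, against 7174 without the block, a fit chosen after seeing the data.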
